A study of Mus musculus with 6 samples.

Results

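Integrins, junction proteins and homing receptors hold blood cells to matrix, to vessel walls and to each other, and the 34 genes described here encode 16 integrin chains, 4 homing or integrin-associated surface receptors, 7 adhesion molecules with immunoglobulin domains, 2 junction proteins and 5 cytoplasmic proteins that join adhesion receptors to the cytoskeleton. They were chosen by symbol, with earlier results of these data known, and each of the 34 symbols has a row in a table of 53819 genes. The integrin chain genes Itga2, Itga2b and Itgb3, much used by platelets, were not among them and are treated as neighbours in the pathway.

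RNA was sequenced from leukaemia cells sorted out of the spleen of mice that had received primary leukaemia cells with the BCR-ABL and NUP98-HOXA9 fusions, a pair of fusion genes that models blast-crisis chronic myeloid leukaemia (bcCML). The groups were SLC6A6 KO with 3 libraries and SLC6A6 WT with 3 libraries, and both carried both fusion genes. The targeted gene, Slc6a6, codes for a taurine transporter, and the design compares leukaemia cells lacking it with cells that have it. The series title speaks of a knock-down, and the sources used here give neither the allele, the sorting marker, the age of the mice nor whether each library of a group came from its own mouse. The p-values therefore measure the spread between these libraries, which may be technical.

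The libraries held 42829294 to 44902511 counts in KO and 44950191 to 49537098 counts in WT. The targeted gene Slc6a6 stood at 125 to 133 CPM (counts scaled to the size of the library, with TMM factors, and written per 1e+06 reads) in the libraries labelled KO and 145 to 151 CPM in those labelled WT, a difference that did not pass the test (log2 fold change −0.18 ± 0.07, SE, adjusted p = 0.196 in edgeR's quasi-likelihood test), so its level does not check the labels. The libraries also differ in sex-linked reads: the summed counts of the Y genes Kdm5d, Uty, Ddx3y and Eif2s3y were 10274 to 11236 in KO libraries and 0 to 1 in WT libraries. The X-linked gene Xist was at 0.305 to 4.41 CPM in KO and 160 to 197 CPM in WT. The label and this difference in sex-linked transcripts therefore cannot be told apart in any result below. Ptprc, which encodes the leukocyte surface protein CD45, was at 105 CPM on average in KO and 98.0 CPM in WT, and the summed level of 8 markers of myeloid progenitors was 227 to 276 CPM in KO and 151 to 401 CPM in WT. Within that list Kit, a receptor of early blood cells, rose 3.64-fold (adjusted p = 0.0450 in edgeR), while Cd34 was lower in KO without overlap (log2 fold change −2.38 ± 0.70, SE, adjusted p = 0.114). In bulk RNA, fewer cells of a type and less RNA per cell cannot be told apart.

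An integrin is a pair of an alpha and a beta chain. Beta1, the product of Itgb1, joins many alpha chains that bind fibronectin, laminin or collagen; beta2, the product of Itgb2, pairs with the leukocyte alpha chains and binds ICAM proteins; beta7, the product of Itgb7, pairs with alpha4 to bind the gut vessel ligand MAdCAM-1 and with alphaE to bind E-cadherin. Talin and kindlins switch integrins to their binding state from inside the cell, and vinculin and focal adhesion kinase act at the sites where integrins meet the cytoskeleton. In blood stem cells and leukaemias, alpha4 paired with beta1, the PSGL-1 protein and CD44 are known for holding cells in, and guiding them to, bone marrow and spleen.

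Of the 34 genes, 31 passed the filter on low counts. Of these 31, 3 rose (Vim, Gja1 and Itga4), beside 1.64% of all genes tested, 2 fell (Itgb7 and Jam2), beside 1.92%, and 26 did not pass the test at an adjusted p of 0.05 over all 15232 genes tested. The 5 called genes are 16.1% of the members tested, beside 3.56% of all genes tested. DESeq2 called 9 of the 31, beside 13.1% of the genes it tested, and limma-voom called 3, beside 2.96%. The median log2 fold change of the members was 0.06 and the median of its size was 0.35, beside 0.01 and 0.26 over all genes tested. In 14 of the 31 (45.2%) the KO and WT libraries did not overlap, 9 of them higher and 5 lower in KO, beside 28.0% of all genes tested. At an unadjusted p below 0.05 stood 12 members (38.7%), beside 22.0% of all genes tested. The members were chosen with earlier results of these data known, so none of these shares is independent of that choice. Itgax passed the filter through the KO libraries alone, so its presence among the genes tested is not independent of its difference. The 5 calls depended on the libraries: leaving out KO3 or WT3 ended all 5, leaving out WT2, KO1 or KO2 left 2 of them, and leaving out WT1 left 3.

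**Figure D1:**
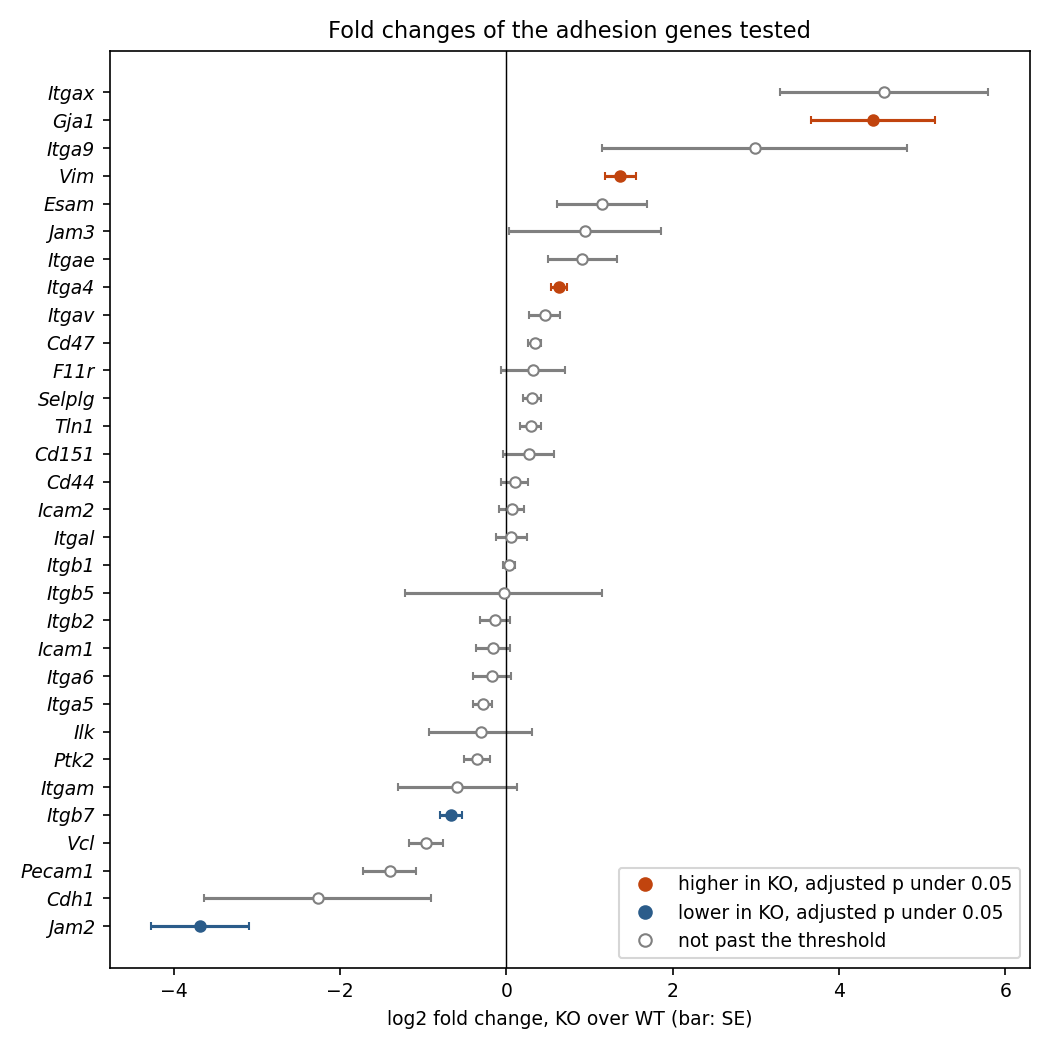
Fitted log2 fold change, KO over WT, of the 31 adhesion genes tested, on the horizontal axis, with bars for the SE and n = 3 libraries a group; filled points passed an adjusted p of 0.05 in edgeR. Gja1, Vim and Itga4 lie to the right of 0 and Itgb7 and Jam2 to the left, and genes with few reads such as Itgax, Itga9 and Cdh1 have the widest bars.

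Transcript levels can be compared between genes only per length, and per kb of exon the order of the set was led by Cd47, at 171 ± 10.1 CPM per kb in KO and 135 ± 7.85 in WT (SD, n = 3 each). Itgb1 (104 ± 3.66 in KO, 101 ± 6.60 in WT) and Tln1 (108 ± 9.66 in KO, 88.3 ± 13.9 in WT) came next, followed by Icam2, Itgb2, Vim and Itgb7. Among beta chains the order was Itgb1, Itgb2, Itgb7 and, near 0, Itgb5. Among alpha chains Itgal, Itga6, Itga5 and Itga4 stood between 11.8 and 26.8 CPM per kb over the 6 libraries, Itgav at 1.33 and the other 7 below 1. At the low end, Itga1, Itga3 and Itga7 did not pass the filter.

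**Figure D2:**
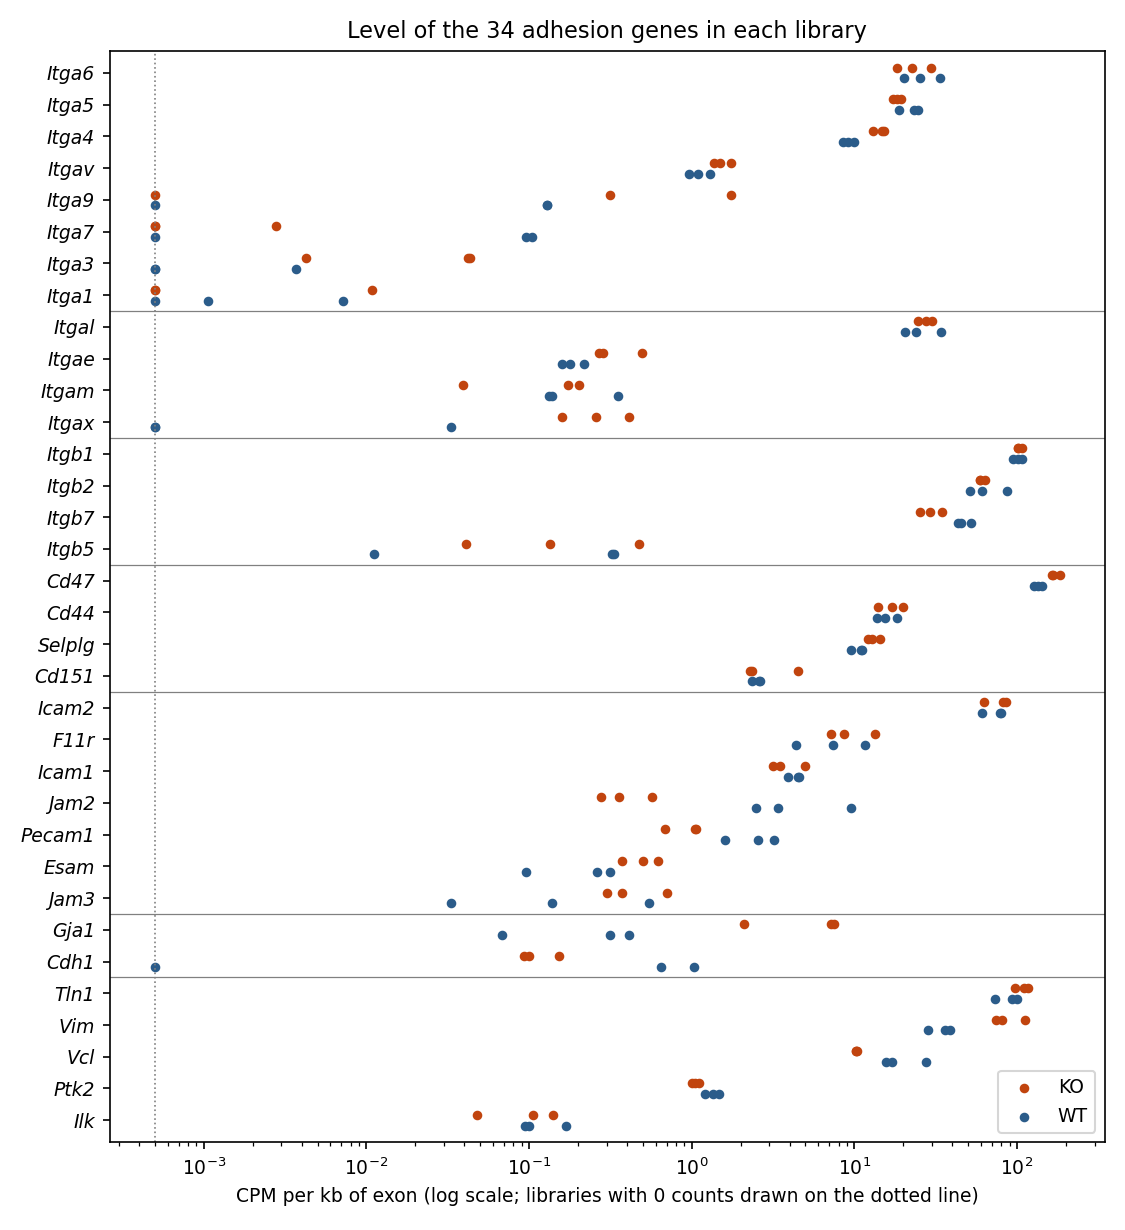
CPM per kb of exon (log scale) of each of the 34 genes in each library, grouped by role from matrix-binding alpha chains at the top to cytoplasmic linkers at the bottom; each point is 1 library, and libraries with 0 counts lie on the dotted line. Most of the genes at over 10 CPM per kb differ little between KO and WT, and the groups stand apart for Vim, Itga4, Itgb7, Vcl, Selplg and Cd47 among them.

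Among matrix-binding alpha chains, Itga4, whose product pairs with beta1 or beta7 and binds VCAM-1, fibronectin and MAdCAM-1, rose. In library order, it was at 213, 181 and 206 CPM in KO1 to KO3, and at 139, 119 and 128 CPM in WT1 to WT3. Every KO library lay above every WT library, and the fit gave a 1.55-fold rise (log2 fold change 0.64 ± 0.10, SE, adjusted p = 0.0252 in edgeR). The adjusted p was 0.0873 without KO1, 0.0870 without KO3, 0.0661 without WT2 and 0.116 without WT3, and the fold stayed between 1.49 and 1.62 in all 6 fits without a library. Of its exon bases 8.04% are shared with Cerkl, which was at 4.68 to 6.37 CPM in KO and 2.30 to 4.91 CPM in WT, far below Itga4.

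The 250 bases before the RefSeq start of Itga4 are shown because it is the integrin chain that rose, with those of Gja1, the gene with the largest called rise. They come from RefSeq on GRCm38.p6, both on the plus strand, at chr2:79255176-79255425 for Itga4 and chr10:56377050-56377299 for Gja1. Capitals mark matches on either strand to the AP-1 motif TGANTCA, the GC box GGGCGG, the RUNX motif TGTGGT and the CArG box.
Itga4: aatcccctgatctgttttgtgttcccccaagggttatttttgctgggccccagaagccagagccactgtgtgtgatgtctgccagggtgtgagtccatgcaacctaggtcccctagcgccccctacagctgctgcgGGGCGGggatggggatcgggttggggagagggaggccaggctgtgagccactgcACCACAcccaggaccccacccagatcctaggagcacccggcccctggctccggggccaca
Gja1: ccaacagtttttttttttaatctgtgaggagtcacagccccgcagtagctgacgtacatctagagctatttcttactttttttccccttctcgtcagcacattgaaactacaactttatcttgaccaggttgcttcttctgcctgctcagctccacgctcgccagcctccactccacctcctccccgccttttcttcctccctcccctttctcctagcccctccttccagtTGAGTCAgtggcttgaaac
Itga4 held a GC box and a RUNX match, which did not overlap, and Gja1 an AP-1 match. Of 32851 promoters of this length in the table, 32.7% held a GC box, 14.0% a RUNX match, 6.75% an AP-1 match and 1.47% a CArG box. Of the 5 called genes 4 had an entry, Jam2 had none, and the windows of Vim and Itgb7 overlap an annotated exon and are not shown.

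The other alpha chains that bind matrix did not pass the test. Itga6, a laminin receptor chain and the most abundant of them by CPM, was at 203, 266 and 164 CPM in KO1 to KO3 and at 302, 181 and 228 CPM in WT1 to WT3, so the groups overlapped widely (adjusted p = 0.727 in edgeR). Itga5, the fibronectin receptor chain, was at 95.3, 90.6 and 85.6 CPM in the KO libraries and 121, 93.3 and 115 CPM in the WT libraries, with KO1 just above WT2 (log2 fold change −0.28 ± 0.11, adjusted p = 0.214). Itgav, whose product binds vitronectin and other matrix proteins, was at 14.6, 18.8 and 16.1 CPM in KO and 13.8, 10.4 and 11.7 CPM in WT, without overlap (0.46 ± 0.18, adjusted p = 0.201). Itga9, which encodes a chain that pairs with beta1, was uneven within both groups. It had 595, 111 and 0 counts in KO1 to KO3 and 50, 47 and 0 counts in WT1 to WT3, so KO1 held most of its reads. The 3 genes below the filter were close to absent: Itga1, a collagen receptor chain, had 9, 0 and 0 counts in KO1 to KO3 and 1, 0 and 6 counts in WT1 to WT3. Itga3, a laminin receptor chain, had 11, 11 and 1 counts in KO and 0, 1 and 0 counts in WT, a ratio of 25.0 with a 95% exact counting interval from 4.06 to 1031. Itga7, another laminin receptor chain, had 1, 0 and 0 counts in KO and 0, 37 and 38 counts in WT, a WT to KO ratio of 69.0 with an interval from 12 to 2759; these intervals cover counting error only, and reads of amplified cDNA are not independent molecules.

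The leukocyte alpha chains were led by Itgal, the alpha chain of LFA-1, which binds ICAM-1 and ICAM-2. It was at 181, 197 and 161 CPM in KO1 to KO3 and at 225, 135 and 158 CPM in WT1 to WT3, with WT1 above every other library (log2 fold change 0.06 ± 0.19, adjusted p = 0.893 in edgeR). Itgax, the CD11c chain used by dendritic cells and some macrophages, was low: 88, 35 and 51 counts in the KO libraries, against 8 in WT1 and 0 in WT2 and WT3. Its ratio over the groups was 23.7 with an exact interval from 11.7 to 55.7, again for counting error only, and its adjusted p was 0.0961. Without WT1 the adjusted p was 0.0492 and the fitted fold 475, against 23.3 with all libraries; with the other WT libraries at 0, that fold depends on the prior count and is no bound. Itgae, the alphaE chain carried by some T cells and dendritic cells, was at 1.24, 2.26 and 1.31 CPM in KO and 0.733, 0.822 and 0.995 CPM in WT, without overlap (adjusted p = 0.256). Itgam, the CD11b chain of myeloid cells, had 45, 9 and 36 counts in KO and 89, 33 and 30 counts in WT. Of its exon bases 68.7% are shared with Gm49368 in GENCODE M21, a gene with 1 count over all libraries, and the sources used here do not say how reads over shared bases were counted, so the level of Itgam was not read from these counts.

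The summed levels of dendritic cell and macrophage markers, cells that can use Itgax and Itgae, were higher in KO, with members on both sides. Of 9 dendritic cell markers 7 were tested and 3 rose, Cd74, H2-Aa and H2-Eb1, beside 1.64% of all genes tested. The summed level of the list was 122 to 140 CPM in KO and 51.7 to 61.7 CPM in WT, carried mainly by Cd74 and H2-Ab1. Xcr1 had 54 counts over KO and 8 over WT, and Clec9a 42 and 24. Siglech had 4 counts over KO and 0 in WT, and no marker was at 0 in all libraries. Flt3, of the same list, was at 0.698 to 2.59 CPM in KO and 3.73 to 6.41 CPM in WT, lower without overlap (log2 fold change −1.63, adjusted p = 0.126). Of 10 macrophage markers 3 rose, Csf1r, Mrc1 and Cx3cr1, with a sum of 111 to 184 CPM in KO and 25.4 to 43.3 CPM in WT. Adgre1, of the same list, had a log2 fold change of −0.26 with overlap. The sum of the 12 T and NK cell markers overlapped, at 19.6 to 46.3 CPM in KO and 14.6 to 21.7 CPM in WT. Of these, 5 were called higher, but 4 of the 5 (Cd3d, Cd3e, Trbc1 and Cd2) passed the filter through the KO libraries alone. The other, Trbc2, was over the filter in 3 KO libraries and 1 WT library, and its KO libraries were enough to pass it. The tests of all 5 are therefore not independent of the filter. Lck and Klrb1c had log2 fold changes of −0.06 and −1.84, and Ncr1 had no count in WT. Of the 7 markers of B cells and plasma cells 2 were called higher, Cd79b and Blk, the second of which passed the filter through KO alone, with a sum of 55.6 to 154 CPM in KO and 5.45 to 39.7 CPM in WT, where Pax5 was at 0. The part of these cells in the values of Itgax and Itgae was not tested.

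**Figure D3:**
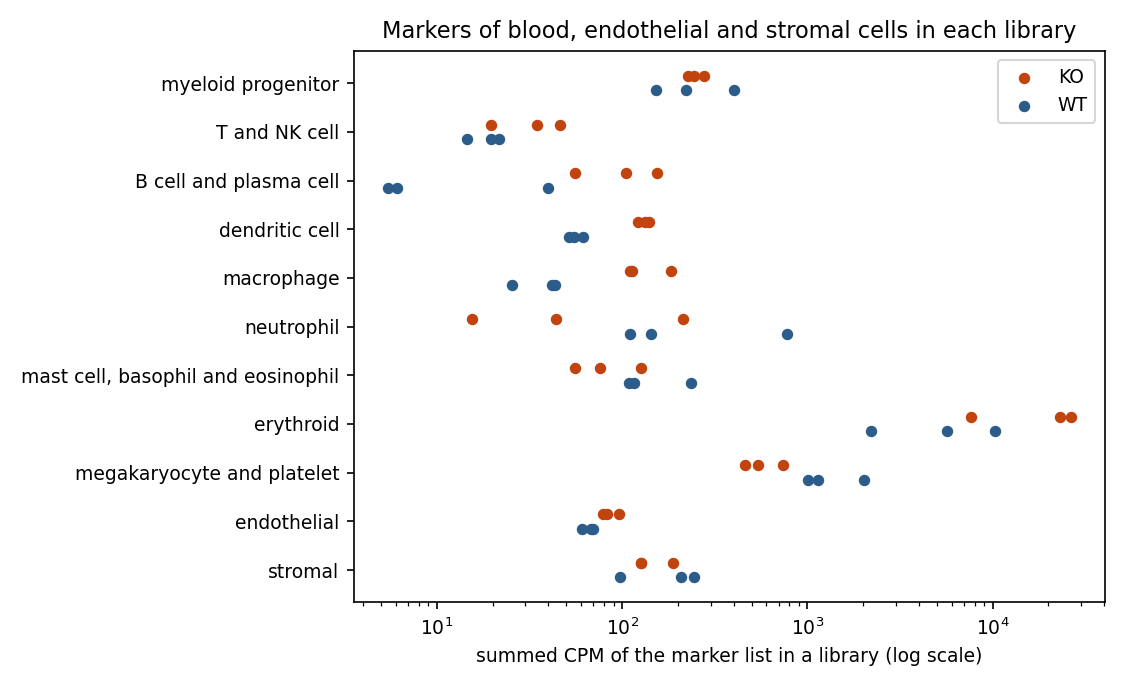
Summed CPM (log scale) of 11 lists of cell type markers, each without the members, in each library; points are libraries. The B cell, dendritic cell, macrophage and endothelial sums are higher in every KO library than in every WT library, the megakaryocyte and platelet sum is lower, and the other 6 lists overlap.

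Among the beta chains Itgb7 fell, and the others did not pass the test. Itgb7 was at 69.8, 81.2 and 96.0 CPM in KO1 to KO3 and at 126, 144 and 121 CPM in WT1 to WT3. The highest KO library lay below the lowest WT library, and the fit gave a level 36.8% lower in KO (log2 fold change −0.66 ± 0.13, SE, adjusted p = 0.0479 in edgeR). The call was lost in each of the 6 fits without a library, at adjusted p-values from 0.0659 to 0.131. Itgb1 was at 440, 413 and 416 CPM in KO and 441, 412 and 387 CPM in WT, values that varied little within or between the groups, with a log2 fold change of 0.03 ± 0.08 (adjusted p = 0.844). Itgb2 was at 181, 195 and 180 CPM in KO and 265, 157 and 187 CPM in WT, with WT1 highest as for its partner Itgal (−0.13 ± 0.18, adjusted p = 0.726). Itgb5, which pairs with alphaV, had 75, 22 and 6 counts in KO and 2, 56 and 52 counts in WT, with no order between the groups.

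Because alpha4 has a choice of beta1 or beta7 as partner, reads of their genes were also set against each other within each library, a measure that needs no scaling between libraries. For each 100 reads of Itga4 there were 32.7, 44.8 and 46.6 reads of Itgb7 in KO1 to KO3, against 90.6, 122 and 94.0 in WT1 to WT3. The groups did not overlap, with a mean of 41.4 ± 7.54 in KO and 102 ± 16.96 in WT (SD, n = 3 each). For each 100 reads of Itgb1 there were 48.4, 43.9 and 49.5 reads of Itga4 in KO and 31.6, 28.8 and 33.2 in WT, again without overlap. Against Itga5, Itga4 had 224, 200.2 and 241 reads per 100 in KO and 115, 127 and 111 in WT. Each of these 3 ratios had a two-sided exact permutation p of 0.1, the smallest that 3 against 3 libraries allow, and 0.117 after Benjamini-Hochberg adjustment over the 7 ratios computed. They rest on the same reads as the fold changes. The first pairs a gene called lower with a gene called higher, so its lack of overlap follows from that choice. The others set the called gene Itga4 over genes that were not called, so their lack of overlap is not independent of its call. They are a description, and do not say which chain changed. Of the 7 ratios, that of Itga6 to Itgb1 overlapped, at 39.5 to 64.5 reads per 100 in KO and 43.9 to 68.4 in WT (exact permutation p = 0.5). Those of Itgb7 to Itgb1, Itga5 to Itgb1 and Itgal to Itgb2 did not overlap.

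**Figure D4:**
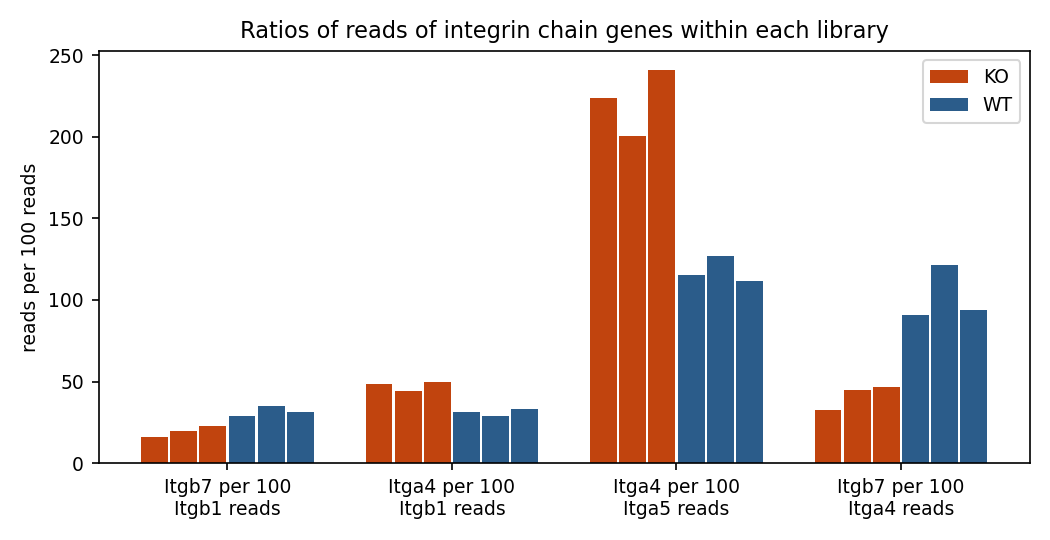
Reads of the first named gene per 100 reads of the second, in KO1 to KO3 and WT1 to WT3 from left to right within each set of bars; each bar is 1 library. Itgb7 reads per 100 Itga4 reads stand at 32.7 to 46.6 in KO and 90.6 to 122 in WT.

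The 4 homing and integrin-associated receptors had positive fold changes in KO, 0 of them past the test, and those of Cd44 and Cd151 turned negative without KO3, that of Cd44 also without WT3. Cd47, which binds integrins and gives macrophages a signal not to engulf the cell, was at 1047, 1029 and 1146 CPM in KO1 to KO3 and at 797, 896 and 847 CPM in WT1 to WT3. The groups did not overlap, and its adjusted p was 0.0608 in edgeR and 0.00479 in DESeq2 (log2 fold change 0.34 ± 0.08). Selplg, which encodes the selectin ligand PSGL-1, was at 54.8, 61.4 and 52.0 CPM in KO and 47.9, 40.8 and 47.0 CPM in WT, also without overlap (0.31 ± 0.11, adjusted p = 0.168). Cd44, the hyaluronan receptor, averaged 115 ± 20.5 CPM in KO and 107 ± 15.3 CPM in WT, with overlap (adjusted p = 0.766). Cd151, a tetraspanin that binds laminin-receptor integrins, was at 12.3 CPM in KO3 and 6.27 to 7.21 CPM in the other 5 libraries.

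Among adhesion molecules with immunoglobulin domains, Jam2 fell. Its product, JAM-B, lies at cell contacts and binds JAM-C. Jam2 was at 3.44, 2.16 and 1.67 CPM in KO1 to KO3 and at 57.8, 15.1 and 20.4 CPM in WT1 to WT3, which is 321 counts over KO and 4555 over WT. WT1 was the highest library by far, but the lowest WT library still stood above every KO library, and the level was 92.2% lower in KO (log2 fold change −3.68 ± 0.59, SE, adjusted p = 0.0274 in edgeR). Without WT1 the fitted KO to WT ratio was 0.135, against 0.0781 with all libraries, and the adjusted p was 0.0360. Without KO1, KO2, KO3 or WT3 the adjusted p was 0.0820, 0.0557, 0.0954 and 0.0851 in that order.

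Pecam1 (CD31), which marks endothelium, platelets and many leukocytes, was at 6.57, 6.55 and 4.24 CPM in KO1 to KO3 and at 20.05, 9.92 and 15.9 CPM in WT1 to WT3. The groups did not overlap, and the adjusted p was 0.0617 in edgeR and 5.16e-04 in DESeq2 (log2 fold change −1.40 ± 0.32). Esam and Jam3, other junction molecules of endothelium and platelets, had positive fold changes that did not pass, at 1.07 to 1.79 CPM in KO and 0.274 to 0.906 CPM in WT for Esam and 0.969 to 2.26 CPM in KO and 0.105 to 1.74 CPM in WT for Jam3. Of the exon bases of Jam3 36.2% are shared with Gm48796. The endothelial markers Cdh5, Robo4, Sox17 and Cldn5 had 0 counts in all 6 libraries, and 4 of the 12 endothelial markers passed the filter on low counts. The sum of the 12 was 78.4 to 96.4 CPM in KO and 60.6 to 69.3 CPM in WT. It was carried almost wholly by Tek, Tie1, Plvap and Egfl7. The sum of 10 megakaryocyte and platelet markers, of which Pf4 fell and none was at 0, was 458 to 739 CPM in KO and 1013 to 2034 CPM in WT, with WT1 highest as for Jam2 and Pecam1. The part of either list in the values of Jam2 and Pecam1 was not tested.

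Icam2, a ligand of LFA-1, was the most abundant gene of this type, at 156, 162 and 119 CPM in KO1 to KO3 and 116, 152 and 149 CPM in WT1 to WT3. The groups overlapped (log2 fold change 0.06 ± 0.15, adjusted p = 0.856 in edgeR). Icam1, which binds LFA-1 and Mac-1 and is induced by inflammation, averaged 16.8 ± 4.14 CPM in KO and 18.8 ± 1.54 CPM in WT (adjusted p = 0.698). F11r, which encodes JAM-A, ran from 19.3 to 35.9 CPM in KO and from 11.6 to 31.2 CPM in WT (adjusted p = 0.683). Neither gene separated the groups.

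Of the junction proteins, Gja1, which encodes the gap junction channel protein connexin 43, rose 21.2-fold. It was at 21.6, 77.3 and 74.0 CPM in KO1 to KO3 and at 4.20, 0.695 and 3.23 CPM in WT1 to WT3, or 7562 counts over KO and 391 over WT. The lowest KO library still lay well above the highest WT library (log2 fold change 4.41 ± 0.75, SE, adjusted p = 0.0318 in edgeR). The call held only without KO1 (adjusted p = 0.0479), and the other 5 fits without a library gave adjusted p-values from 0.0513 to 0.127, with folds from 15.5 to 29.0 over all 6. The stromal cell markers Col3a1, Dcn, Pdgfra and Des, of cells that carry connexin 43, had 0 counts in all 6 libraries, and Col1a1, Lum and Cxcl12 had 0 in KO; the sum of the 10 stromal markers, carried mainly by Col1a2, was 126 to 189 CPM in KO and 97.7 to 244 CPM in WT. Cdh1, which encodes E-cadherin, the ligand of alphaE with beta7, was at 0.428, 0.457 and 0.703 CPM in KO and at 4.70, 2.97 and 0 CPM in WT1 to WT3. With WT3 at 0 and the other WT libraries above every KO library, its groups overlapped (adjusted p = 0.388).

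**Figure D5:**
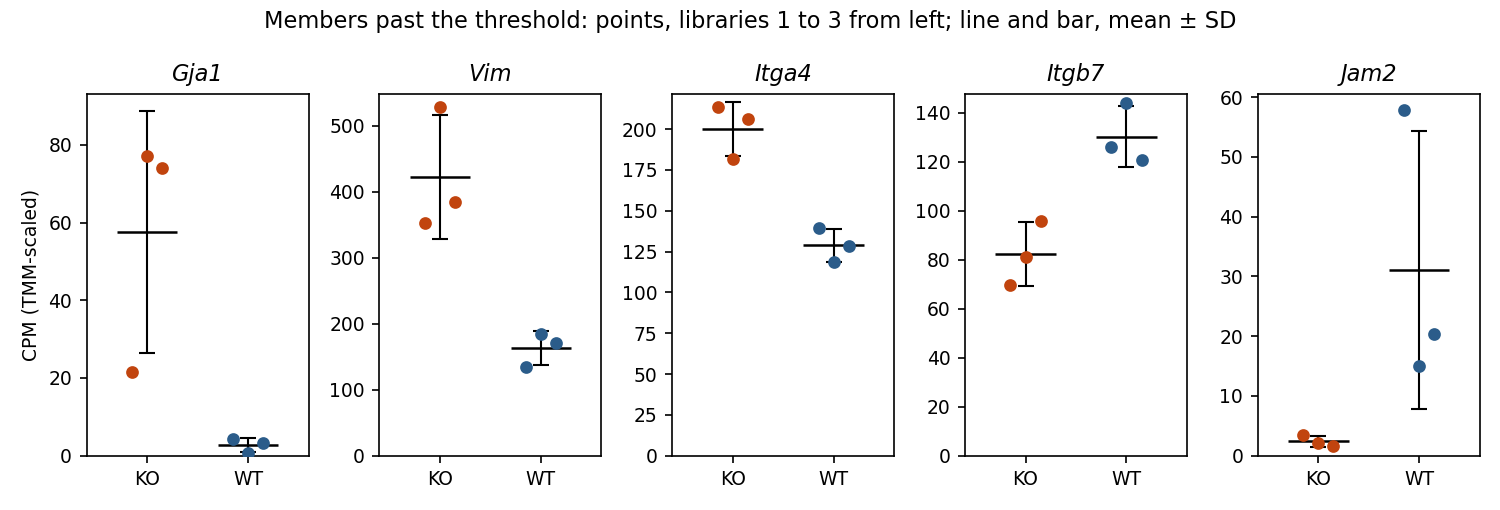
CPM of the 5 called genes in each library (points, libraries 1 to 3 from left), with the mean and SD of each group, n = 3. Gja1, Vim and Itga4 are higher and Itgb7 and Jam2 lower in KO without overlap, while KO1 stands below KO2 and KO3 for Gja1 and WT1 above WT2 and WT3 for Jam2.

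Among cytoplasmic proteins, Vim, which encodes the intermediate filament protein vimentin, rose 2.59-fold. It was at 352, 529 and 385 CPM in KO1 to KO3 and at 134, 185 and 170 CPM in WT1 to WT3. All KO libraries lay well above all WT libraries (log2 fold change 1.37 ± 0.18, SE, adjusted p = 0.0191 in edgeR), with an adjusted p of 0.0558 without KO3 and 0.0964 without WT3 and a fold from 2.24 to 2.80 in the 6 fits without a library. Vimentin is a protein of mesenchymal cells and of many leukocytes, macrophages among them. The stromal list, with 4 markers at no count, had a sum of 126 to 189 CPM in KO and 97.7 to 244 CPM in WT. The macrophage sum was 111 to 184 CPM in KO and 25.4 to 43.3 CPM in WT. The part of either list in the Vim values was not tested.

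Vcl, which encodes vinculin, had lower values in KO that did not pass the test. It was at 83.6, 84.2 and 85.2 CPM in KO1 to KO3 and at 225, 128 and 141 CPM in WT1 to WT3. The KO libraries were almost equal and all below the WT libraries, but the adjusted p was 0.0547 in edgeR (log2 fold change −0.96 ± 0.21), against 0.0313 without WT1 and 1.86e-04 in DESeq2. The megakaryocyte and platelet sum (458 to 739 CPM in KO, 1013 to 2034 CPM in WT) was also lower in KO, with WT1 again highest, and its part in the Vcl values was not tested. Of its exon bases 25.5% are shared with Ap3m1, which was at 72.8 to 74.7 CPM in KO and 74.8 to 83.8 CPM in WT. Tln1, which encodes the integrin activator talin, was at 959, 1144 and 1083 CPM in KO and 909, 714 and 975 CPM in WT, with KO1 below WT3 (0.29 ± 0.13, adjusted p = 0.240). Ptk2, focal adhesion kinase, was at 11.9 to 13.02 CPM in KO and 14.2 to 17.4 CPM in WT, without overlap (−0.35 ± 0.16, adjusted p = 0.246). Ilk, integrin-linked kinase, had 6 to 17 counts in KO and 13 to 21 in WT. Of its exon bases 89.7% are shared with other genes, mostly Taf10 and Rrp8, and Taf10 stood at 175 to 204 CPM in KO and 182 to 220 CPM in WT, so the level of Ilk was not read from these counts.

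The libraries of a group were not alike over the set. Within WT, WT1 was the highest library for 19 of the 31 members tested (61.3%), beside 39.2% of all genes tested, and it led for Itga6, Itgal, Itgb2, Pecam1, Jam2 and Vcl. Within KO, the highest value was in KO1 for 12 members (38.7%), in KO2 for 13 (41.9%) and in KO3 for 6 (19.4%). The shares over all genes tested were 29.7%, 37.4% and 32.9% in that order.

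The rest of the pathway was described with 134 further adhesion genes: other integrin chains, selectins, adhesion receptors, integrin adaptors, focal adhesion proteins, junction genes and matrix ligands. Of these, 103 passed the filter, 3 rose, 0 fell and 100 did not pass the test, so 2.91% were called beside 3.56% of all genes tested. In DESeq2 18 rose and 10 fell, 27.2% of the 103, beside 13.1% of all genes it tested. In edgeR 39 (37.9%) had an unadjusted p below 0.05, beside 22.0% of all genes tested, and the median log2 fold change was 0.09. This list too was chosen with earlier results of these data known.

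The called genes were a collagen receptor chain, a lymphocyte adhesion receptor and an integrin activator. Itga2, whose product pairs with beta1, was at 24.3, 25.1 and 28.9 CPM in KO1 to KO3 and at 1.23, 2.51 and 1.44 CPM in WT1 to WT3. It averaged 26.1 ± 2.44 CPM in KO and 1.72 ± 0.69 CPM in WT, a 15.1-fold rise (log2 fold change 3.92 ± 0.31, SE, adjusted p = 0.00317 in edgeR), and stayed past the threshold in all 6 fits without a library. Cd2, a T and NK cell receptor that is also in the marker list of those cells, had 82, 49 and 61 counts in KO1 to KO3 and 1, 5 and 5 counts in WT1 to WT3 (adjusted p = 0.0292). Like Itgax it passed the filter through the KO libraries alone, so its test is not independent of that filter, and its call was lost without KO1, KO3, WT2 or WT3 (adjusted p from 0.0742 to 0.116). Rasgrp2, the exchange factor that loads Rap1 with GTP ahead of talin, was at 59.7, 68.1 and 55.3 CPM in KO1 to KO3 and at 44.2, 37.5 and 40.7 CPM in WT1 to WT3. It averaged 61.0 ± 6.54 CPM in KO and 40.8 ± 3.36 CPM in WT, a 1.49-fold rise (adjusted p = 0.0484), and its call was lost in each of the 6 fits without a library (adjusted p from 0.0715 to 0.167).

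The adaptors, focal adhesion proteins, selectin-related genes, junction genes and matrix ligands held no other called gene. Fermt3, the kindlin of blood cells, was at 1158 CPM on average in KO and 1100.4 CPM in WT (adjusted p = 0.692), and Rap1a at 86.1 CPM in both. Rap1b, a near relative, averaged 356 ± 4.70 CPM in KO and 517 ± 88.6 CPM in WT without overlap (adjusted p = 0.0611). Vcam1, the ligand of alpha4 with beta1 and also a marker in the macrophage list, was at 30.1, 9.49 and 9.70 CPM in KO1 to KO3 and at 3.35, 2.84 and 1.48 CPM in WT1 to WT3, with an adjusted p of 0.0523. Among the platelet integrin chains, Itga2b averaged 192 ± 33.0 CPM in KO and 397 ± 174 CPM in WT, and Itgb3 59.6 ± 19.5 CPM in KO and 235 ± 202 CPM in WT, both without overlap and with adjusted p-values of 0.102 and 0.116. The 6 genes of this paragraph were chosen for their role after their values were seen.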

How the data were processed

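Per the labels' protocols, RNA was amplified by the SMARTer Ultra Low Input method before Nextera XT library preparation, a combination that marks neither strand nor molecules. The deposited values are counts of reads per gene as whole numbers, 1 column per library with none unused; the submitters' processing notes name STAR 2.7.9a, fastp 0.23.1, featureCounts and Subread 2.0.1, and the sources used here give no genome build, annotation or treatment of shared reads.

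The filterByExpr function removed low genes (at least 10 counts, 15 in total), and the rest were scaled by TMM and compared with edgeR 4.0.16 (quasi-likelihood F test, robust, no covariate) under R 4.3.3, with Benjamini-Hochberg adjustment over 15232 genes at a threshold of 0.05. The SE is the size of the log2 fold change over the square root of F, and the biological coefficient of variation was 0.323. A count of 3 is 0.0594 to 0.0727 CPM. Low-count ratios carry Clopper-Pearson intervals at 95%. Exon length and shared exon bases come from all transcripts in GENCODE M21 (GRCm38). No pair of libraries of a group agreed within sampling noise (chi-square per degree of freedom 35.4 to 126).

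Members, gene lists, ratios and tests were chosen with earlier results of these data known. All 34 members are accounted for; values in every library are given for those past the threshold or at an unadjusted p below 0.05, for the most abundant of each role and for the chains paired with beta1, beta2 and beta7, and, of the other adhesion genes, those past the threshold. The code was tested on simulated counts for 15232 genes: at a 2-fold change edgeR called 40.3% of the altered genes and at 4-fold 74.2%, with 7 unaltered genes called, and DESeq2 1.42.0 called 53.7% and 81.8%, with 62 unaltered genes called. Alternatives were other scalings, DESeq2, limma-voom in limma 3.58.1, other filters, the replicate number as a block and each library left out. A marker gene is not reported here.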

Additional observations from a re-analysis of the deposited data

How the results depend on the processing

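With 3 libraries a group, counts of calls moved with the test and the libraries. The main counts were 3 members higher and 2 lower, 3 other adhesion genes higher and 0 lower, and 250 genes higher and 293 lower over all genes. DESeq2 called 5 and 4 members, 18 and 10 other adhesion genes, and 1075 and 920 genes; the members it added were Itgax, Pecam1, Vcl and Cd47. Limma-voom called 1 member lower, having lost Jam2 and Gja1. Without a low-count filter, and with at least 1 CPM in 3 samples, 4 members and 1 other adhesion gene were lower; both settings added Pecam1 and Vcl, and the setting without a filter lost Gja1. RLE factors and library totals kept the 5 calls, and upper-quartile factors kept them and added Vcl. No scaling moved the median of all genes by over 0.1 on the log2 scale. Leaving out 1 library gave 0 to 3 members higher and 0 to 2 lower, 1 to 5 other adhesion genes higher and 0 to 1 lower, and 13 to 371 genes higher and 29 to 247 lower. Members without overlap numbered 14 to 18 in those fits, where fewer libraries make a lack of overlap easier to reach. The share over all genes in those fits was not computed, so these numbers have no background.

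The deviations of libraries with the same number had correlations of 0.06, −0.14 and −0.07. Those of libraries with unlike numbers ran from −0.13 to 0.19. The correlations show no pairing by number, but with 3 libraries a group they cannot exclude one. With the number as a replicate block 1 member was higher (Vim, adjusted p = 0.0334) and 0 lower, 1 other adhesion gene was higher, and 8 genes were higher and 20 lower over all genes.

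No called member changed sign. Some members that were not called did. Over the 6 fits without a library the log2 fold change ran from −0.37 to 0.024 for Itga6, −0.089 to 0.28 for Itgal and −0.96 to 0.0095 for Itgam. It ran from −0.024 to 0.061 for Itgb1, −0.29 to 0.084 for Itgb2 and −1.32 to 0.45 for Itgb5. For Cd44 it ran from −0.038 to 0.22, for Cd151 from −0.13 to 0.43, for Icam2 from −0.070 to 0.18 and for Ilk from −0.65 to 0.015. In limma-voom it was 0.40 for Itgb5. The 7 read ratios kept their direction in the 6 sets without a library, an alternative chosen after seeing the data. The cause of these changes was not tested.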
